A study of Mus musculus with 4 samples.

Results

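The Rb and E2F family was measured here as 10 genes of the 27966 on the array: the pocket proteins Rb1, Rbl1 and Rbl2, and the transcription factors E2f1, E2f2, E2f3, E2f4, E2f5, E2f6 and E2f8. They were chosen by name, as every non-control probe whose gene name on the array equals a member, and all 10 had at least 1 probe. The 19 member probes included 15 that were well above background on all 4 arrays and 2 that were so on none. Among the members, 6 had more than 1 probe, and the probe with the highest mean level over the 4 arrays stands for a gene unless another is named.

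Prostates of male mice aged 8 weeks were profiled in a 2-by-2 design of genotype and treatment, with 1 Agilent array of single-colour Cy3 signal for each group. The 4 groups were C57BL/6 mice given olive oil, C57BL/6 mice given γ-TmT, TRAMP mice given olive oil and TRAMP mice given γ-TmT. γ-TmT is a γ-tocopherol-rich mixture of tocopherols, the vitamin E family, and was given once by oral gavage at 600 mg/kg; olive oil was its vehicle. All mice ate the purified AIN-76A diet, fasted overnight before the gavage and were killed 12 hr after it. The labels count 3 mice in each group but do not say whether an array held RNA of 1 mouse or a pool, so 4 arrays gave 1 value a group and no spread between mice. TRAMP mice carry the SV40 early genes behind a rat probasin promoter, which drives them in prostate epithelium; the strain they were bred on is not stated in the labels, and the transgene itself was not analysed here.

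Pocket proteins bind E2F factors and hold E2F target genes silent. Cyclin-dependent kinases release the factors by phosphorylating the pocket proteins, and the released factors drive genes of DNA replication and of mitosis. SV40 large T antigen binds the pocket of all 3 members of the Rb family. E2F1 to E2F3 are classed as activators, E2F4 to E2F6 as repressors, and E2F7 and E2F8 are atypical repressors that bind DNA without a dimerization partner.

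A level is the log2 of a spot's processed signal minus the log2 of the 75th percentile of that signal on the same array, so 0 is the 75th percentile of the array. Levels of different probes were not set against each other, except to choose the brightest probe of a gene. The 75th percentile ranged from 71.3 to 161 signal units and was lowest on the TRAMP γ-TmT array, and between 63.9% and 74.1% of spots were well above background. The scanner software's detrending had altered most spots of 3 arrays, but on the TRAMP γ-TmT array 80.7% of processed signals equalled the plain background-subtracted signal. Each group had its own array position, so position, array and group cannot be told apart. All 10 luminal prostate epithelium markers were well above background on every array. Their summed level was 291, 341, 149 and 175 times the 75th percentile in the order C57BL/6 oil, C57BL/6 γ-TmT, TRAMP oil and TRAMP γ-TmT.

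Promoter sequence of the family came from RefSeq on GRCm38.p6, as windows of 300 bases running from 250 bases before to 50 after a gene's start, and 7 members had an entry, with 9 windows among them. The windows shown are the 3 that hold an E2F motif and that of E2f8, the member with the widest range over the arrays. The E2F motif was searched as TTTCCCGC, TTTCGCGC, TTTGCCGC or TTTGGCGC on both strands, and 744 of 32851 windows of all genes held it (2.26%). It occurred in 3 of the 9 member windows, those of Rbl1, E2f2 and E2f3. The CHR motif of G2 and M phase genes was searched as TTTGAA or TTCGAA on both strands, and 19.2% of all windows and 4 of the 9 member windows held it: those of E2f8, Rbl2 and E2f3 and a second E2f2 window. Capitals mark the E2F motif in the first 3 sequences and the CHR motif in the E2f8 sequence, all read 5′ to 3′ on the gene's strand. The Rbl1 window is chr2:157204485-157204784 on the minus strand, with its match 18 bases before the start. The E2f2 window is chr4:136172024-136172323 on the plus strand, with its match 40 bases after the start.
Rbl1: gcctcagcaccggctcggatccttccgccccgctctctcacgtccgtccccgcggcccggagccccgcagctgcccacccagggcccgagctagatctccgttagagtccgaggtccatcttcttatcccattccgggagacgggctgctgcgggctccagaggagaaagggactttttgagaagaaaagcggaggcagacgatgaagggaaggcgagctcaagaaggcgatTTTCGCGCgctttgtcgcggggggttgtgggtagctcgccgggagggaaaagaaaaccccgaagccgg
E2f2: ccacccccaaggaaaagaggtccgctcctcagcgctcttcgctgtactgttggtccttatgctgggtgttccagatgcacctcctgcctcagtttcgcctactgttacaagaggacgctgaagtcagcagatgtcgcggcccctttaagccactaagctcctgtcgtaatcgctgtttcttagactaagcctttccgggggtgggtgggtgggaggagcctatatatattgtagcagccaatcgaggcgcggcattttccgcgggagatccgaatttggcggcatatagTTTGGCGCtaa
E2f3: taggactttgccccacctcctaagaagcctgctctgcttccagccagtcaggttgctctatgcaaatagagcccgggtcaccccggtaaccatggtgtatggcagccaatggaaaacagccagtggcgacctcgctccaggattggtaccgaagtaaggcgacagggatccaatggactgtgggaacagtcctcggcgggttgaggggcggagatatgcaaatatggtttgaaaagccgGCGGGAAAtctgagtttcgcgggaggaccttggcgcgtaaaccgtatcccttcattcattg
E2f8: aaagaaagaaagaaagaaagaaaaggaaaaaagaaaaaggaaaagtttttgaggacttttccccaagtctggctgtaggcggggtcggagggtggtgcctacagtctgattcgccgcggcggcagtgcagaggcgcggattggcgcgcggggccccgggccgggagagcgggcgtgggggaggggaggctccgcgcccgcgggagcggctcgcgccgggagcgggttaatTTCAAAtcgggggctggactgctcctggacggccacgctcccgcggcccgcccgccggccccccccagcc
The E2f3 window is chr13:29986014-29986313 on the minus strand, and its match, on the opposite strand to the letters searched, lies 11 bases before the start; its CHR match, 23 bases before the start, is left in lower case. The E2f8 window is chr7:48881547-48881846 on the minus strand, and its CHR match lies 20 bases before the start. A match is a description of the letters and not evidence of binding.

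On the software's processed signals, E2f8 and E2f1 showed the widest differences of the family between TRAMP and C57BL/6 prostate. E2f8 was not well above background in either C57BL/6 array and was well above it in both TRAMP arrays. E2f1 was 3.00-fold higher in TRAMP on its brightest probe, averaged over the treatments. That probe read below the gene's other probe on both C57BL/6 arrays, so only its TRAMP readings made it the brightest. The activator E2f2, the pocket protein Rbl1 and the repressor E2f4 were between 1.81 and 2.00-fold higher. On brightest probes, E2f5 was the only member lower on both TRAMP arrays than on both C57BL/6 arrays. No member passed an adjusted p of 0.05 in limma on the software's processed signals, and the E2f1 difference was not seen on the gene's other probe.

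**Figure D1:**
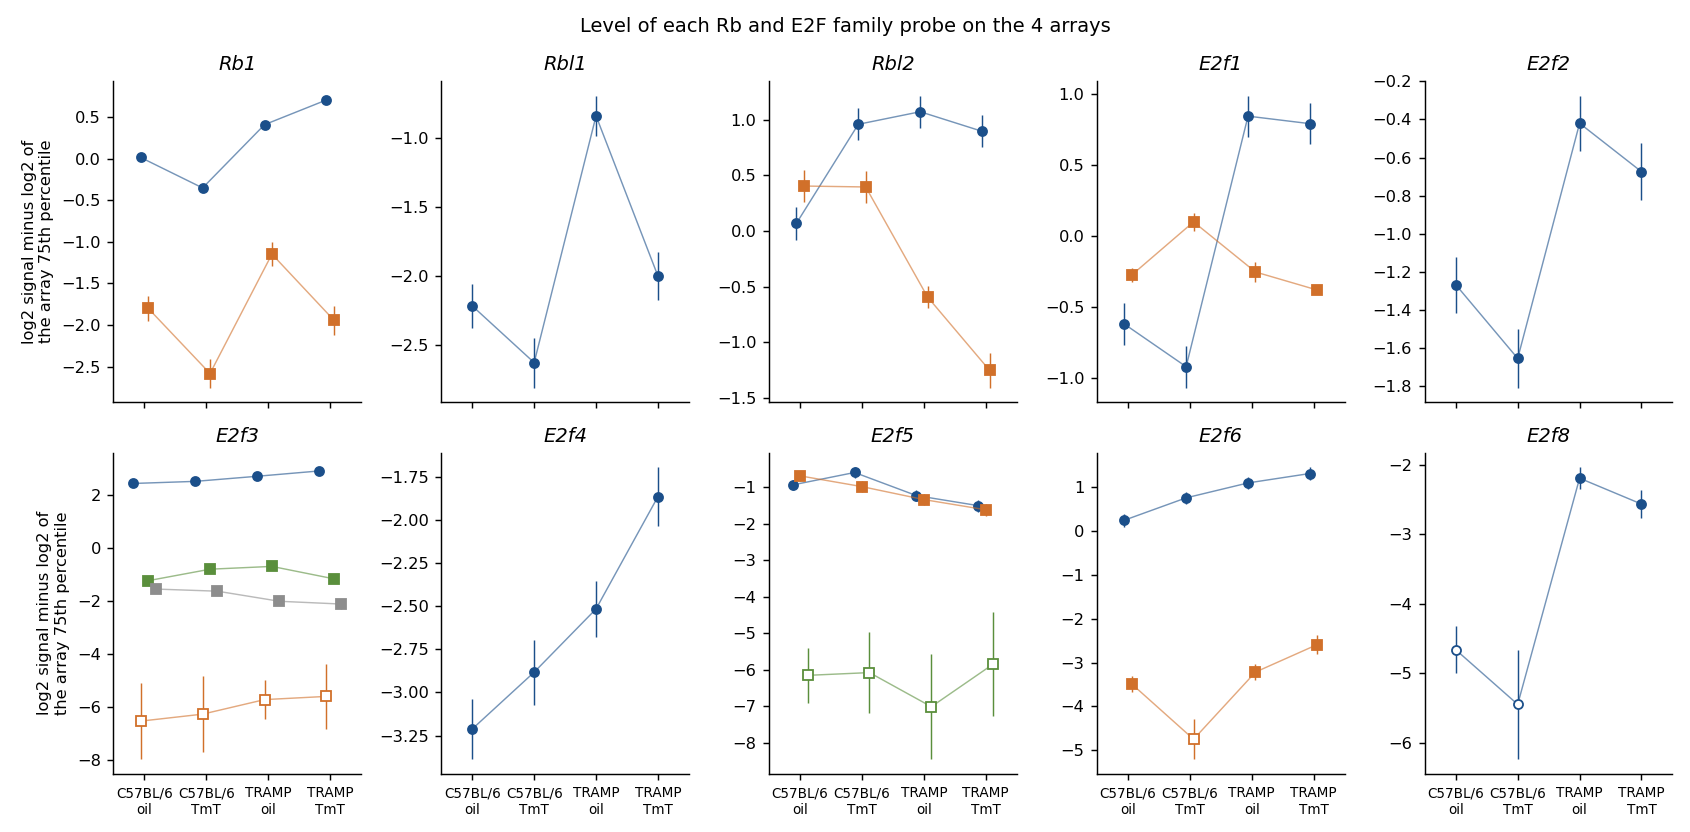
Level of every probe of each member on each of the 4 arrays (y axis, log2 signal minus log2 of the array's 75th percentile), with reading error as bars, circles for the brightest probe, squares for others and open symbols where a probe was not well above background. E2f8 sits at −4.66 and −5.45 on the C57BL/6 arrays and at −2.19 and −2.57 on the TRAMP arrays.

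Among the pocket proteins, Rb1 holds E2F activators in resting cells, and its brightest probe (mm9 chr14:73595408-73595467, printed 10 times on each array) read 0.01 in C57BL/6 oil, −0.35 in C57BL/6 γ-TmT, 0.41 in TRAMP oil and 0.70 in TRAMP γ-TmT. Both TRAMP arrays were above both C57BL/6 arrays. TRAMP was higher by 0.39 ± 0.057 after oil and by 1.06 ± 0.065 after γ-TmT, with the error taken over the repeated spots of that probe. The gene's other probe (chr14:73662360-73662419) gave 0.65 ± 0.21 and 0.64 ± 0.24, where the error of a probe printed once is the scanner software's own error of its signal. In these errors only the reading of a spot is covered, and no spread between mice.

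Rbl1, which binds E2F4 and is itself induced in cycling cells, read −2.22 in C57BL/6 oil, −2.63 in C57BL/6 γ-TmT, −0.84 in TRAMP oil and −2.00 in TRAMP γ-TmT (chr2:156972143-156972202). TRAMP oil stood above the other 3 arrays. The genotype difference was 1.37 ± 0.21 after oil and 0.63 ± 0.25 after γ-TmT.

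Rbl2, the pocket protein of resting cells, gave opposite answers on its probes. Its brightest probe (chr8:93646362-93646421) read 0.07, 0.96, 1.07 and 0.90 in the order C57BL/6 oil, C57BL/6 γ-TmT, TRAMP oil and TRAMP γ-TmT, so that C57BL/6 oil stood below the other 3 arrays. The genotype difference was 1.00 ± 0.20 after oil and −0.06 ± 0.20 after γ-TmT. A second probe (chr8:93647120-93647179) read 0.41, 0.40, −0.59 and −1.25 in the same order. It put TRAMP lower, by −0.999 ± 0.18 after oil and −1.65 ± 0.21 after γ-TmT. No direction between genotypes is given for Rbl2.

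**Figure D2:**
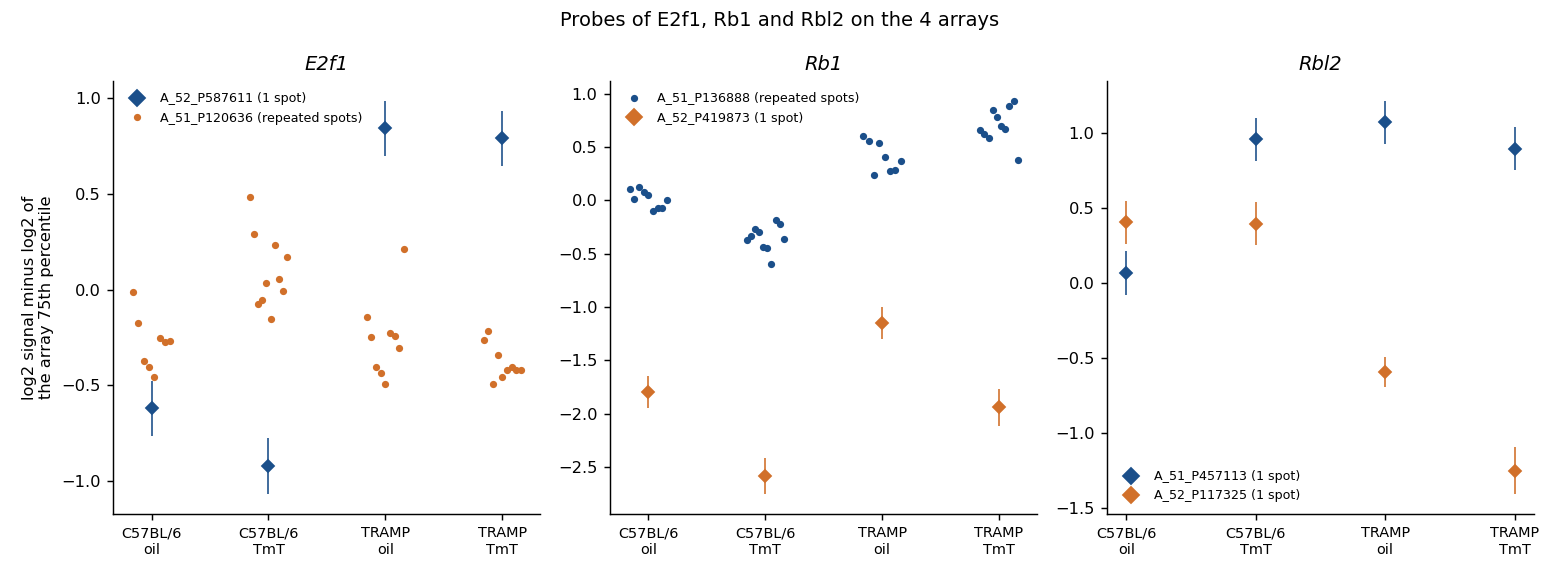
Level of both probes of E2f1, Rb1 and Rbl2 on each array (y axis, log2 signal minus log2 of the array's 75th percentile), with blue for the brightest probe and orange for the other, dots for single spots of repeated probes and diamonds with reading error for probes printed once. The E2f1 probes separate the genotypes by 1.46 and by 0.02 after oil, and the Rbl2 probes point in opposite directions there.

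Among the activators, E2f1 drives the entry into DNA synthesis. Its brightest probe (chr2:154386004-154386063) read −0.62 in C57BL/6 oil, −0.92 in C57BL/6 γ-TmT, 0.84 in TRAMP oil and 0.79 in TRAMP γ-TmT. The TRAMP arrays stood apart from the C57BL/6 arrays by 1.46 ± 0.20 after oil and 1.71 ± 0.21 after γ-TmT. The gene's other probe (chr2:154385742-154385801), printed 10 times, read −0.28, 0.10, −0.25 and −0.38 in the same order of arrays. On it the genotype difference was 0.02 ± 0.085 after oil and −0.48 ± 0.069 after γ-TmT. The difference seen on the brightest probe was thus not present on the gene's other probe. The errors of these probes are of different kinds, over repeated spots and from the scanner software. Their sizes therefore do not show which probe is the more precise.

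E2f2 had 1 probe (chr4:135750562-135750621) with readings of −1.27, −1.65, −0.42 and −0.67 in C57BL/6 oil, C57BL/6 γ-TmT, TRAMP oil and TRAMP γ-TmT. The genotypes did not overlap, with TRAMP higher by 0.85 ± 0.21 and 0.98 ± 0.21 after oil and γ-TmT. E2f3 was measured best by a probe (chr13:29998480-29998539) that read 2.45, 2.53, 2.73 and 2.93 on the 4 arrays in the same order. Its genotype differences, 0.27 ± 0.20 and 0.39 ± 0.20, were both under 1.5-fold. The other E2f3 probes well above background did not follow it. A probe spanning chr13:30001985-30003071 put TRAMP lower by −0.46 and −0.49 after oil and γ-TmT, and one spanning chr13:30005369-30008755 gave 0.54 and −0.36.

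Among the repressors, E2f4 is the main partner of Rbl1 and Rbl2 in resting cells. Its probe (chr8:107829156-107829215) read −3.21, −2.88, −2.52 and −1.87 in C57BL/6 oil, C57BL/6 γ-TmT, TRAMP oil and TRAMP γ-TmT. Both TRAMP arrays lay above both C57BL/6 arrays, by 0.70 ± 0.24 after oil and 1.02 ± 0.25 after γ-TmT. E2f6, which represses without a pocket protein through Polycomb-type complexes, read 0.25, 0.76, 1.10 and 1.31 on its brightest probe (chr12:16833463-16833522). It differed between genotypes by 0.85 ± 0.20 and 0.56 ± 0.20 in the 2 treatments.

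E2f5, a repressor that pairs with Rbl2, was lower in TRAMP on both of its probes that were well above background. Its brightest probe (chr3:14605676-14605735) read −0.93, −0.59, −1.22 and −1.50, and the TRAMP arrays were the 2 lowest. The differences were −0.29 ± 0.21 after oil and −0.91 ± 0.22 after γ-TmT. A second probe (chr3:14605964-14606026) gave −0.65 ± 0.21 and −0.64 ± 0.22.

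E2f8, an atypical repressor that accumulates in late S phase, had 1 probe (chr7:56122022-56122081) with readings of −4.66 and −5.45 on the C57BL/6 arrays, neither well above background, and −2.19 and −2.57 on the TRAMP arrays. Where a group is not above background, a stand-in level was used. It was the higher of the group's reading and the lowest reading that was well above background on its array. This level is not a strict upper limit, since a reading not well above background can exceed that lowest one. The E2f8 reading in C57BL/6 oil did so, at −4.66 against −4.84. After γ-TmT, TRAMP was 3.61-fold above the stand-in level. After oil the stand-in level was the C57BL/6 reading itself, and TRAMP was 5.53-fold above it. Both are ratios and not lower bounds. E2f7, the atypical partner of E2f8, is not a member and was looked at after its values were seen. On its brightest probe E2f7 was well above background on the TRAMP oil array only, at −1.64. That was 9.19-fold above the stand-in level of C57BL/6 oil and 3.71-fold above that of TRAMP γ-TmT. The other E2f7 probe was well above background on no array and read −5.57 on TRAMP oil.

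**Figure D3:**
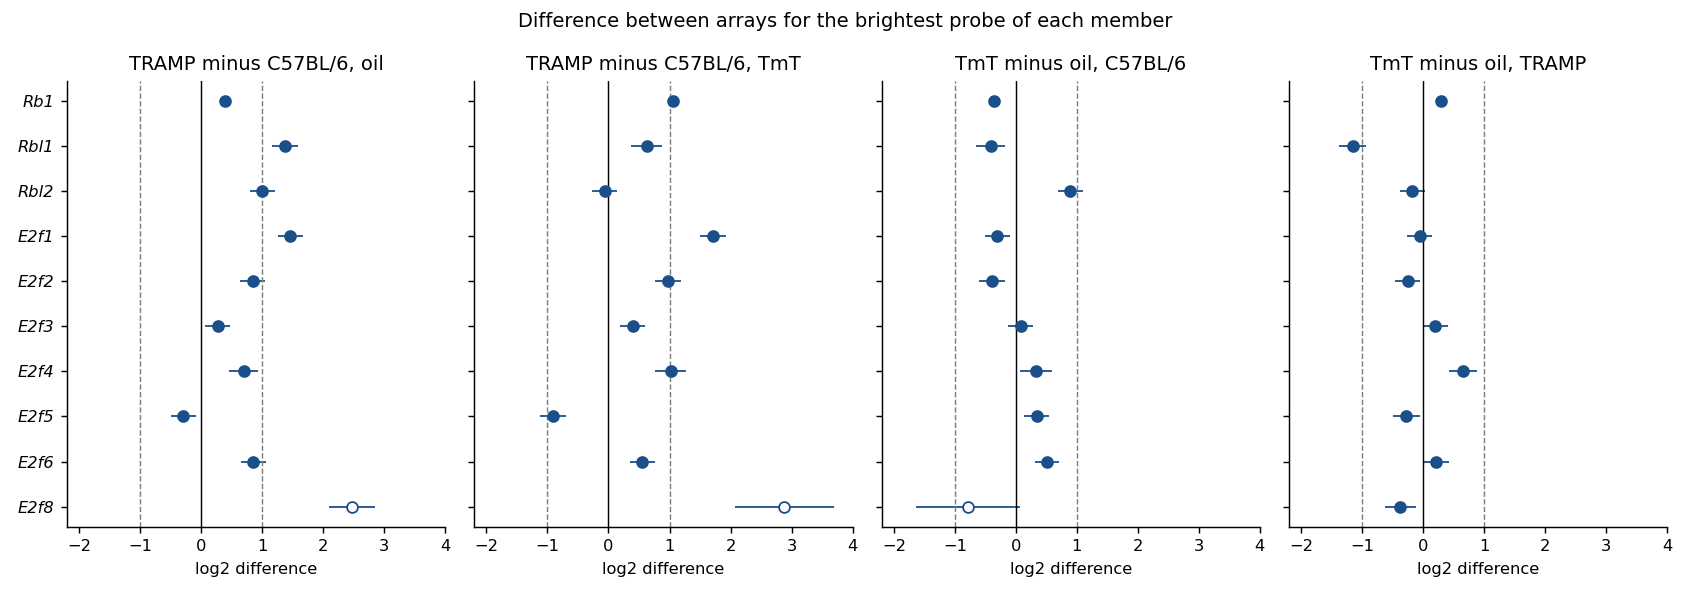
Difference between arrays for the brightest probe of each member (x axis, log2), 1 panel for each of the 4 pairs of arrays, with reading error as bars, dashed lines at 2-fold and open symbols where an array was not well above background. After oil, E2f5 is the only member left of 0, at −0.29, and γ-TmT against oil puts 1 measured member beyond 2-fold, Rbl1 in TRAMP.

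Counted over brightest probes, 3 of 9 members measured on both arrays were at least 2-fold higher in TRAMP after oil (E2f1, Rbl1 and Rbl2), where 7.74% of 18916 genes were. None was 2-fold lower, where 7.84% were, and 15.6% of genes differed either way. By any amount, 8 of the 9 were higher, where 45.5% of genes were. After γ-TmT, 3 of 9 were higher (E2f1, E2f4 and Rb1) against 8.45% of 17248 genes, and none was lower against 6.08%, with 14.5% of genes different either way. By any amount, 7 of the 9 were higher, where 50.6% of genes were. These counts include E2f1 and Rbl2, whose second probes gave 0.02 and −0.999 after oil and −0.48 and −1.65 after γ-TmT. The E2f1 probe counted was the brightest only through its TRAMP readings. A second probe was put in for the 5 members that had another one well above background on all 4 arrays. Then 1 of 9 was 2-fold higher after oil (Rbl1), and after γ-TmT 1 was higher (E2f4) and 1 lower (Rbl2). Rbl1 and E2f4 have 1 probe each and kept their values, so Rbl2 was the only member of those 5 beyond 2-fold. Median centring made E2f5 2-fold lower after γ-TmT and left E2f1 as the 1 member higher. With normexp correction 1 of 9 was 2-fold higher in each treatment, E2f1. That correction added an offset of 50 signal units, which shrinks differences of dim probes. With the mean over all probes of a gene 1 of 9 was 2-fold higher after oil, Rbl1. Without multiplicative detrending Rbl2 was at 0.49 after oil. The median of the members was 0.85 after oil and 0.63 after γ-TmT, beside −0.07 and 0.01 for all genes measured. Both TRAMP arrays lay above both C57BL/6 arrays for 8 of the 10 members, all but Rbl2 and E2f5, where 21.3% of 19918 genes did so. For 1 member they lay below, where 25.5% did. The 8 include E2f8, which was among the 19918 genes only through its TRAMP arrays, so the filter favoured this order. They also include E2f1, on the probe that its TRAMP readings made the brightest, and E2f3, whose other probes above background did not follow.

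In limma's fit of genotype and treatment as separate additive terms over 19918 genes, which has 1 residual degree of freedom, the median genotype difference of the members was 0.79 and that of all genes −0.07. Over genes well above background on all 4 arrays, which leaves out E2f8, the medians were 0.73 for 9 members and −0.06 for all genes. E2f8 had a difference of 2.67 ± 0.33 (SE; adjusted p = 0.0675 in limma), a coefficient that rests on C57BL/6 readings that were not above background. With normexp correction, whose offset shrinks differences of dim probes, the E2f8 difference was 0.60 ± 0.26. E2f1 had 1.59 ± 0.33 (adjusted p = 0.134 in limma). With normexp background correction of the raw signals it had 1.12 ± 0.26 (adjusted p = 6.07e-04 in limma), where 1384 genes passed in place of 27, and on its second probe it had −0.23 ± 0.34. Rbl1 had 1.00 ± 0.36, E2f2 0.91 ± 0.32 and E2f4 0.86 ± 0.33, and the adjusted p of these 3 in limma ran from 0.289 to 0.314. Rb1 had 0.73 ± 0.35, E2f6 0.70 ± 0.33 and E2f5 −0.60 ± 0.35. E2f3 had 0.33 ± 0.32, and Rbl2 had 0.47 ± 0.39 on its brightest probe and −1.32 on its second. The error of these fits is mostly the spread shared over genes, since 1 residual degree of freedom carries the interaction of genotype and treatment. At an unadjusted p under 0.05, 5 members were higher in TRAMP (Rbl1, E2f1, E2f2, E2f4 and E2f8), where 7.89% of genes were, and none was lower, where 7.22% were. E2f8 entered this fit only through the TRAMP arrays on which it was high; fitted over the 16958 genes well above background on all 4 arrays, 4 of 9 members were higher, where 9.08% of genes were, and none lower, where 7.77% were. After adjustment no member was called in either direction, where 0.1% of genes were called higher and 0.0351% lower.

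Between γ-TmT and oil, Rbl1 in TRAMP was the 1 member with a 2-fold difference. No member differed by 2-fold in C57BL/6, where 3.12% of 18660 genes were higher and 2.63% lower by that much, 5.74% in all. By any amount, 5 of 9 members were higher after γ-TmT there, where 52% of genes were. In TRAMP, 1 of 10 members, Rbl1, was 2-fold lower and none was higher, where 4.85% and 8.66% of 17462 genes were, 13.5% in all. By any amount, 4 of the 10 were higher, where 55.9% of genes were. The Rbl1 difference in TRAMP was −1.16 ± 0.23, against −0.41 ± 0.24 in C57BL/6. With normexp correction it was −0.19 in TRAMP and 0.10 in C57BL/6. The Rbl1 signal was 77.5 units in TRAMP oil and 17.8 in TRAMP γ-TmT, so the offset of 50 units shrinks this difference. These values therefore cannot show whether the 2-fold difference in TRAMP holds. Rbl2 was higher by 0.89 ± 0.20 in C57BL/6 and lower by −0.18 ± 0.20 in TRAMP on its brightest probe, but the second probe gave −0.01 ± 0.20 and −0.66 ± 0.19. On the brightest probe the TRAMP value was 0.49 with normexp correction and 0.80 without multiplicative detrending, so no opposite sign between genotypes is given for Rbl2. The median of the members was 0.08 in C57BL/6 and −0.11 in TRAMP, beside 0.02 and 0.10 for all genes.

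Counted on brightest probes, E2f3, E2f4 and E2f6 were higher after γ-TmT than after oil in both genotypes, where 29.7% of genes were so. Rbl1, E2f1, E2f2 and E2f8 were lower in both, where 25.8% were. On brightest probes, Rb1, Rbl2 and E2f5 differed in sign between the genotypes, as 44.5% of genes did. Small differences turned sign with normexp correction, which gave −0.17 for E2f3, −0.05 for E2f6 and 0.26 for E2f8 in TRAMP. The E2f4 differences were 0.33 ± 0.26 in C57BL/6 and 0.65 ± 0.23 in TRAMP, and those of E2f6 were 0.51 ± 0.20 and 0.22 ± 0.20. Another E2f6 probe, not well above background in C57BL/6 γ-TmT, gave −1.26 in C57BL/6 and 0.63 in TRAMP. With the mean over all probes E2f6 was at −0.38 in C57BL/6. The other E2f3 probes well above background gave 0.43 and −0.08 in C57BL/6, and −0.47 and −0.11 in TRAMP. E2f8 was lower by −0.37 ± 0.26 in TRAMP. In the additive fit 0 members passed an unadjusted p under 0.05 for treatment, where 6.28% of genes did, and none passed after adjustment, where 0% of genes did. The largest treatment difference of a member in that fit was that of Rbl1, at −0.78 ± 0.36 (adjusted p = 0.778 in limma).

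Genes that act on or with the family were taken from lists of textbook members, and their counts in the additive fit stand beside 7.89% of all genes higher and 7.22% lower at an unadjusted p under 0.05. Among the D, E and A cyclins and their kinases, which phosphorylate pocket proteins, 4 of 10 were higher at an unadjusted p under 0.05 and none lower, with a list median of 0.03. Ccne2, a cyclin E, read −0.47, −1.44, 1.23 and 0.10 in C57BL/6 oil, C57BL/6 γ-TmT, TRAMP oil and TRAMP γ-TmT, a difference of 1.62 ± 0.32 in the fit. The kinase gene Cdk2 was at 1.31 ± 0.32, the cyclin gene Ccna2 at 1.88 ± 0.53 and the kinase gene Cdk6 at −0.68 ± 0.37. Of the CDK inhibitors, 1 of 6 measured was higher (Cdkn2b, at 1.05 ± 0.39) and none lower, and Cdkn2a was not well above background on any array.

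Of the dimerization partners, Tfdp1 read 2.50, 2.60, 3.70 and 3.61 on the arrays in the same order, and the TRAMP arrays were the higher pair. Its difference was 1.10 ± 0.32, while that of Tfdp2 was −0.64 ± 0.33. Among the genes of the MuvB core, B-Myb and FoxM1, 3 of 6 measured were higher and 1 lower at an unadjusted p under 0.05, beside the same 7.89% and 7.22% of all genes. Foxm1, a driver of mitotic genes, was at 2.00 ± 0.55, Lin9 at 1.24 ± 0.37 and Lin54 at 1.10 ± 0.32, while Lin52 was at −1.04 ± 0.35. Mybl2, which like Cdkn2a was named after its values were seen, was not well above background on any array. Of 19 corepressor genes and genes of the E2F6 complex, 3 were higher and 1 lower, with a median of 0.06; the methyltransferase gene Suv39h1 was at 1.24 ± 0.34 and the deacetylase gene Hdac2 at −1.54 ± 0.41.

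The genes the family is known to control had larger median genotype differences than the family itself. Of 30 textbook E2F targets, 27 were higher in TRAMP at an unadjusted p under 0.05 and none was lower, against 7.89% and 7.22% of all genes, with a median of 2.04. Some entered the fit only through TRAMP arrays; over genes well above background on all 4 arrays, 24 of 26 were higher and none lower, against 9.08% and 7.77%, with a median of 1.77. Mcm3, a subunit of the replicative helicase, was at 3.42 ± 0.34 and Uhrf1, a partner of DNA methyltransferase, at 3.54 ± 0.33. Both TRAMP arrays lay above both C57BL/6 arrays for 28 of the 30 and below them for 1, where 21.3% and 25.5% of all genes did so. The 28 include genes that entered only through TRAMP arrays. Uhrf1 and Hells were past an adjusted p of 0.05 in limma, and Hells, not well above background in C57BL/6 γ-TmT, was named after its values were seen. Under quantile normalization both were at an adjusted p of 0.0781 in limma, and with the mean over all probes at 0.0753 for Uhrf1 and 0.0640 for Hells. Of 18 G2 and M phase genes, 17 were higher and none lower at an unadjusted p under 0.05, against the same 7.89% and 7.22%. Their median was 2.30, and all 18 had both TRAMP arrays above both C57BL/6 arrays, where 21.3% of all genes did. Over genes well above background on all 4 arrays, 13 of 14 were higher and none lower, against 9.08% and 7.77%. Ccnb1, the mitotic cyclin B, was at 2.90 ± 0.42 and Mki67, a marker of cycling cells, at 2.76 ± 0.38. These lists were compiled with earlier results of these data known, so their counts are descriptions.

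**Figure D4:**
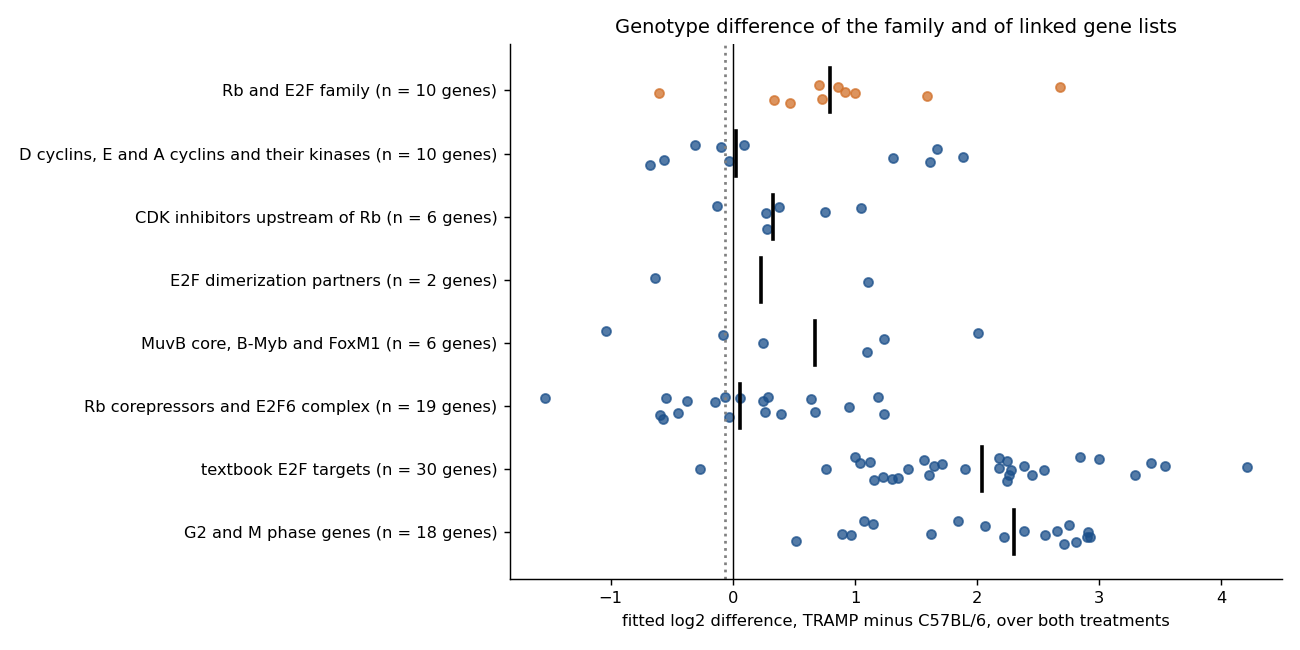
Genotype difference (TRAMP minus C57BL/6, log2, from the additive fit) of each gene in the family and in each pathway list, with black bars at list medians and a dotted line at −0.07, the median of all genes. The median is 2.04 for textbook E2F targets, 2.30 for G2 and M phase genes and 0.79 for the family.

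γ-TmT in TRAMP went with lower levels of these targets: 10 of 29 E2F targets were 2-fold lower than after oil and none was higher, against 4.85% and 8.66% of all genes, with a median of −0.77 that ran from −0.67 to −0.89 over the other backgrounds and scalings tried. In C57BL/6, 2 of 26 were 2-fold lower and none higher, against 2.63% and 3.12% of all genes, with a median of −0.16. For G2 and M phase genes the counts were 3 of 18 lower in TRAMP, with a median of −0.44, and 2 of 14 lower in C57BL/6, against the same 4.85% and 2.63% of all genes. Between genotypes, 25 of 28 measured E2F targets were at least 2-fold higher in TRAMP after oil and 19 of 26 after γ-TmT, against 7.74% and 8.45% of all genes, with none lower in either.

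Cell type markers also differed between the arrays, and their part in the results above was not tested. The summed level of 7 adipocyte markers was 44.1, 23.6, 247 and 29.1 in the same order of arrays, so the TRAMP oil array held by far the most. After oil, 6 of the 6 adipocyte markers measured were at least 2-fold higher in TRAMP, where 7.74% of genes were. In TRAMP, 5 of 5 were 2-fold lower after γ-TmT, where 4.85% of genes were. The summed level of 6 fibroblast markers was 140, 115, 64.9 and 118, and that of 5 basal markers 28.4, 23.1, 12.2 and 22.7, both lowest on the TRAMP oil array. A sum follows its brightest genes, and the basal markers did not all move together. Krt5 read 2.98, 3.02, 1.09 and 2.53, but Trp63 read 0.65, −0.01, 1.25 and 1.71, higher on both TRAMP arrays. After oil, 2 of 5 basal markers were 2-fold lower in TRAMP and none was higher, where 7.84% and 7.74% of genes were. In tissue of many cell types, fewer cells of a type and less RNA in each cell cannot be told apart.

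The 5 genes whose pattern over the 4 arrays was most like that of E2f8, the member with the widest range, among 18907 genes with a symbol, were Cenpf, Arhgef4, Cit, Diaph3 and Ndc80. Likeness was the root mean square distance of centred log2 levels over the 4 arrays, and it was 0.0897 for Cenpf, 0.0977 for Arhgef4, 0.117 for Cit, 0.121 for Diaph3 and 0.163 for Ndc80. Cenpf, a kinetochore gene, read −0.62 in C57BL/6 oil, −1.51 in C57BL/6 γ-TmT, 1.71 in TRAMP oil and 1.57 in TRAMP γ-TmT. E2f8 itself was not well above background on the C57BL/6 arrays, with reading errors there of 0.340 and 0.787, so these distances lie within its own error and give no order. They describe 4 arrays, and Arhgef4 was not well above background on the C57BL/6 arrays.

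**Figure D5:**
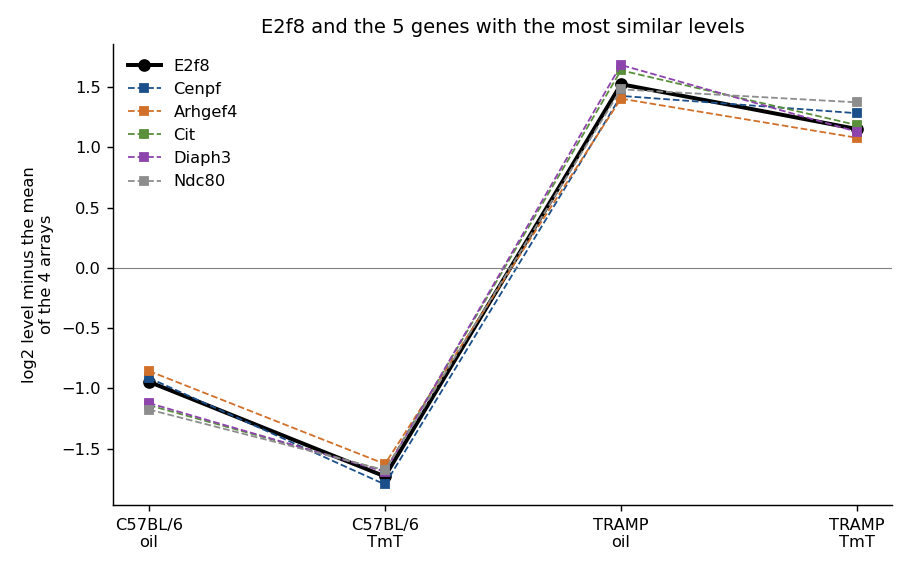
Level of E2f8 and of the 5 genes nearest to it on each array, minus the gene's mean over the 4 arrays (y axis, log2). All 6 lines are higher on both TRAMP arrays than on both C57BL/6 arrays, which follows from choosing the 5 genes by their likeness to E2f8 on these arrays.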

How the data were processed

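Labels of the study mark 1 array per group. Processed signals, an intensity in linear units, were deposited by the authors as Agilent Feature Extraction 10.2.1.3 output, per the file headers, with background subtraction and spatial and multiplicative detrending named there. A deposited value table held the same processed intensity for every feature. Probe coordinates are those of mm9, as the files give them, without an annotation of exons or UTRs used here. Signals were divided by each array's 75th percentile over non-control spots and taken to log2, after leaving out outlier spots. Spots of 1 probe were averaged and each gene was represented by its brightest probe. Gene symbols were updated through RefSeq for 24836 of 41174 probes whose accession matched. A pair of arrays was compared with no test, by 2-fold among genes well above background on both. limma 3.58.1 (R 4.3.3) fitted genotype and treatment with 1 residual degree of freedom over the 19918 genes read above background by the software on 2 or more arrays, with Benjamini-Hochberg adjustment, and was tested on simulated data. Members and lists were chosen with earlier results of these data known. The named genes were all members, up to 4 of each pathway list by the largest genotype difference among genes well above background on all 4 arrays, up to 2 per marker list and the 5 genes nearest to the member of widest range. Alternatives were normexp background correction of the mean signal (a spot flagged for its local background took the array's median background, chosen after the fit on all backgrounds left an SD of 0.492 and 0.179 log2 on the γ-TmT arrays against 1.52 and 1.30 with it), quantile normalization, median centring, undoing the detrending, averaging all probes of a gene, other filters and fold cuts, and a second probe, the last chosen after seeing the data.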

Additional observations from a re-analysis of the deposited data

Results flagged for a closer look

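On its brightest probe, Rb1 was lower after γ-TmT than after oil in C57BL/6, by −0.37 ± 0.047, and higher in TRAMP, by 0.30 ± 0.072, with the error over repeated spots. The gene's other probe gave −0.78 ± 0.23 and −0.79 ± 0.23, with no opposite sign. E2f5 was higher by 0.34 ± 0.21 in C57BL/6 and lower by −0.28 ± 0.22 in TRAMP, and its other probe gave −0.30 ± 0.21 and −0.28 ± 0.22. With normexp background correction the TRAMP difference was −0.0033 for Rb1 and −0.05 for E2f5. These results were marked because the genotypes moved in opposite directions, as 44.5% of all genes did. With 1 array a group the difference between genotypes was not tested.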

How the results depend on the processing

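Between genotypes after oil, 3 members were at least 2-fold different on the brightest probes. That count was 1 with normexp correction (E2f1), 1 with the mean over all probes (Rbl1) and 2 without multiplicative detrending (E2f1 and Rbl1). It was 4 with no background filter, which adds E2f8, and 6 at 1.5-fold. With second probes it was 1, Rbl1, which has 1 probe and so kept its value. After γ-TmT it was 3, and 1 with normexp correction (E2f1), 2 under quantile normalization (E2f1 and Rb1) and 2 under median centring (E2f1 higher, E2f5 lower). It was 2 with the mean over all probes (E2f4 and E2f6) and 2 with second probes (Rbl2 lower, and E2f4 higher, which has 1 probe). It was 4 without the detrending, which adds E2f2, 4 with no background filter, which adds E2f8, and 6 at 1.5-fold. For γ-TmT in C57BL/6 it was 0, and 1 without multiplicative detrending and 1 at 1.5-fold, Rbl2 in both. For γ-TmT in TRAMP it was 1, and 0 with normexp correction, whose offset shrinks differences of dim probes, and 2 at 1.5-fold. Members past the adjusted p in limma for genotype were 0, and 1 with normexp correction (E2f1, adjusted p = 6.07e-04) and 1 without multiplicative detrending (E2f8 at 1.99, adjusted p = 0.0498, with C57BL/6 readings not above background). Genes called for genotype numbered 27, and 1384 with normexp correction, 266 without the detrending, 278 with the filter on all 4 arrays, 76 under median centring, 39 with no filter, and 0 under quantile normalization or the mean over probes. For treatment 0 members passed under any setting, while genes called were 337 with normexp correction and 0 otherwise. Signs turned on the second probe, which gave −0.999 for Rbl2 after oil, −0.48 for E2f1 after γ-TmT, and −0.23 for E2f1 and −1.32 for Rbl2 in the additive fit, and with the mean over all probes, which gave −0.43 for Rbl2 there. The cause was not tested. Counting values of any size, 25 member values had the opposite sign under an alternative: 10 on second probes, 7 with normexp correction, 6 with the mean over all probes and 2 without the detrending. Of these, 17 were differences between γ-TmT and oil. On second probes E2f3 gave −0.36 between genotypes after γ-TmT and −0.47 for γ-TmT in TRAMP, and E2f1 gave 0.37 for γ-TmT in C57BL/6. No paired analysis was possible because each group has 1 array. Leaving out an array was not run, since it leaves no residual degree of freedom. Having 1 array a group limits the precision of every value. Dim probes such as that of E2f8 have only a ratio to a stand-in level or to a reading not above background.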
